A study of Mus musculus with 24 samples.

Results

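The comparison described here is that of total RNA between forelimbs with 1 deleted Rps6 allele and control forelimbs, both with p53 intact. It rests on 6 of the 24 libraries of the study, chosen by the genotype and the library kind in the labels, and not by any measured value. The controls carried a floxed Rps6 allele without Cre (Rps6lox/+;Trp53+/+, called Rps6 WT, Trp53 WT), and the other group carried the same alleles with the Cre transgene (Prx1Cre;Rps6lox/+;Trp53+/+, called Rps6 het, Trp53 WT). Each group had 3 pools. All were mouse forelimbs at E10.5, and each pool joined material of 2 embryos of the same genotype. Matching groups with no Trp53 (Rps6lox/+;Trp53-/- and Prx1Cre;Rps6lox/+;Trp53-/-) and libraries of ribosome-protected fragments (RPF, the stretches of mRNA shielded by ribosomes) made from the same lysates serve below only as comparisons.

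The protein made from Rps6 is part of the small subunit of the ribosome. Cells that make too little of a ribosomal protein are known to activate p53, the transcription factor encoded by Trp53, because free ribosomal particles and proteins hold back its negative regulator Mdm2. Active p53 is known to raise the transcription of genes for cell cycle arrest and cell death, and many of the genes it lowers act in cell division. Prx1Cre drives recombination in the mesenchyme of the limb bud, so that ectoderm, vessels and blood in the same limb are expected to keep both Rps6 alleles. Only the Rps6 het pools carried the Cre transgene, so an effect of the transgene and one of the deleted allele cannot be told apart.

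The rows of the table are mouse transcripts given by versioned Ensembl transcript IDs, and the files do not pair these IDs with gene names. Of the 21960 row IDs, 0 matched the tables of gene names used here. The levels of Rps6 and Trp53 themselves, the markers of limb mesenchyme and of other cell types, and the lists of p53 targets, ribosomal proteins, limb patterning genes and cell cycle genes were therefore not examined. Transcripts are described by their level, the size and direction of their change, their footprints and their behaviour in limbs without p53. The 6 libraries held 19337252 to 26317954 counts, and 3 counts, taken as the smallest level a library can show, corresponded to 0.114 to 0.155 CPM (counts scaled to a common library size). Replicate pools correlated with Spearman's rho of 0.996 to 0.997 across transcripts. Between pools of a group, chi-square over its degrees of freedom was 3.1 to 7.54. No pool therefore repeated another within sampling noise. The labels give neither sex nor litter of the embryos.

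The RNA of the limb bud changed broadly and mostly by small amounts. Of 14411 transcripts tested, 1892 rose (13.1%) and 1688 fell (11.7%) in Rps6 het limbs, 24.8% in all (edgeR's quasi-likelihood test, adjusted p under 0.05, termed called below). The median log2 fold change was 0.32 for the called increases and −0.30 for the called decreases, against 0.01 over all transcripts tested. Of the called transcripts, 47.4% changed by more than 1.25-fold, 19.8% by more than 1.5-fold and 5.53% by more than 2-fold. Past 4-fold there were 25 increases and 9 decreases, and past 8-fold 10 increases and 2 decreases. Of the 25 increases, 11 passed the filter on low counts only through the Rps6 het, Trp53 WT pools, as did 27 of the 112 past 2-fold, so these had to differ. For the 86 decreases past 2-fold this count was 0, but they are low in those pools, so the count is uninformative. How many decreases passed only through the Rps6 WT, Trp53 WT pools, where they are high, was not counted. The largest decrease, described below, did so. In these bulk libraries, fewer cells of a type and less RNA per cell cannot be told apart.

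The balance of increases and decreases among the calls depended on how libraries were scaled. By TMM, the scaling used throughout, 52.8% of the called transcripts rose. With library totals alone, an alternative chosen after seeing the data, 1439 rose and 2226 fell (39.3% higher), and the median over all transcripts tested moved from 0.01 to −0.03 on the log2 scale. Of the 3580 transcripts called by TMM, 3127 were called by both, and 0 changed sign. The TMM factors lay between 0.984 and 0.995 in the Rps6 het pools and between 1.01 and 1.02 in the Rps6 WT pools. Leaving out 1 pool lowered the number called to 2211 without replicate 3 of Rps6 WT (1184 higher and 1027 lower) and to 2292 without replicate 1 of Rps6 het (1162 higher and 1130 lower), the 2 pools whose loss changed the number by more than 1.5 times.

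The pools of the 2 genotypes did not overlap in CPM for 5978 transcripts, 41.5% of those tested (21.4% with the higher level in Rps6 het and 20.1% with the lower). This was so for 1844 of the 1892 called increases and 1648 of the 1688 called decreases. Among called changes beyond 1 on the log2 scale it was so for 110 of 112 increases (0.777% of transcripts tested were called and rose by that much) and 82 of 86 decreases (0.597%). The calls rest on the same 6 pools, so these counts of non-overlapping transcripts are a description and add no support. The large changes lay among scarce transcripts. The median level over the 6 pools was 1.47 CPM for the 112 increases and 1.38 CPM for the 86 decreases, against 58.5 and 53.7 CPM for called changes of at most 0.5 on the log2 scale.

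**Figure D1:**
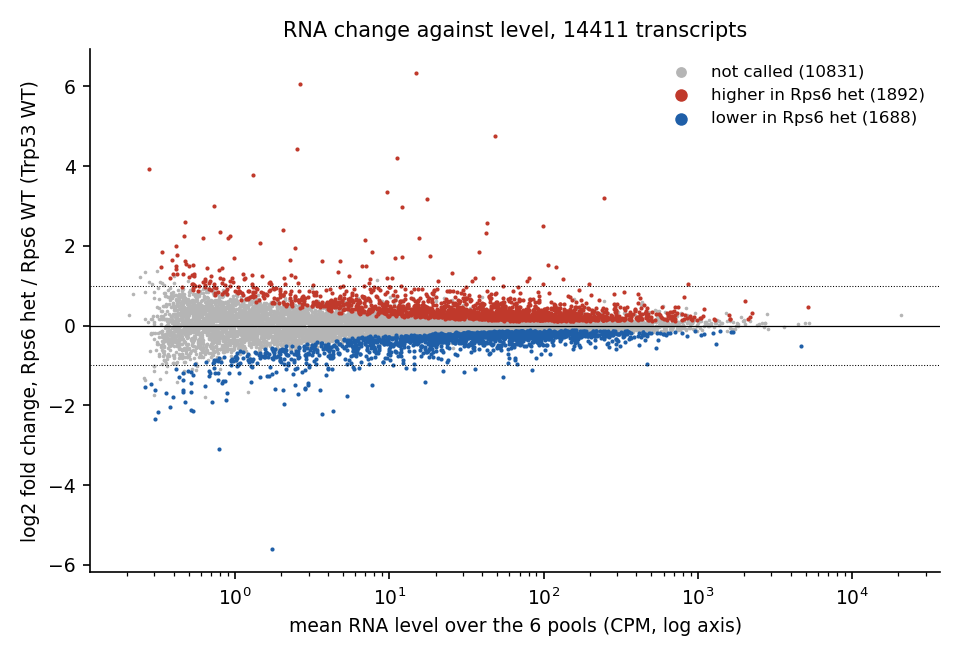
Log2 fold change of RNA in Rps6 het against Rps6 WT limbs with Trp53 (vertical axis) against the mean level over the 6 pools in CPM (horizontal log axis), 1 point per transcript. Red and blue points are the 1892 called increases and 1688 called decreases, grey points were not called, and dotted lines mark a log2 fold change of 1 in either direction. Changes beyond those lines sit mostly at low levels, and the highest points lie further from 0 than the lowest ones, apart from 1 decrease near −5.6.

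How often a transcript was called followed its level. Ordered by mean CPM and cut into deciles, 110 of 1442 transcripts were called in the scarcest decile (7.63%), with a median level of 0.573 CPM. In the most abundant decile 480 of 1441 were called (33.3%), with a median level of 251 CPM. The median standard error (SE) of the log2 fold change fell from 0.34 to 0.05 between these deciles, and the median absolute log2 fold change of called transcripts fell from 1.23 to 0.22. Small changes of scarce transcripts were thus not detectable at this depth. In the scarcest decile 63 of the called transcripts rose and 47 fell. In deciles 2, 5 and 8 called decreases outnumbered increases (86 and 98, 169 and 189, 231 and 248, increases given before decreases). Deciles 3 and 4 were near even (140 each, and 175 and 176), while deciles 6, 7 and 9 held more increases (207 and 180, 257 and 190, 274 and 230). In the most abundant decile 290 rose and 190 fell.

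**Figure D2:**
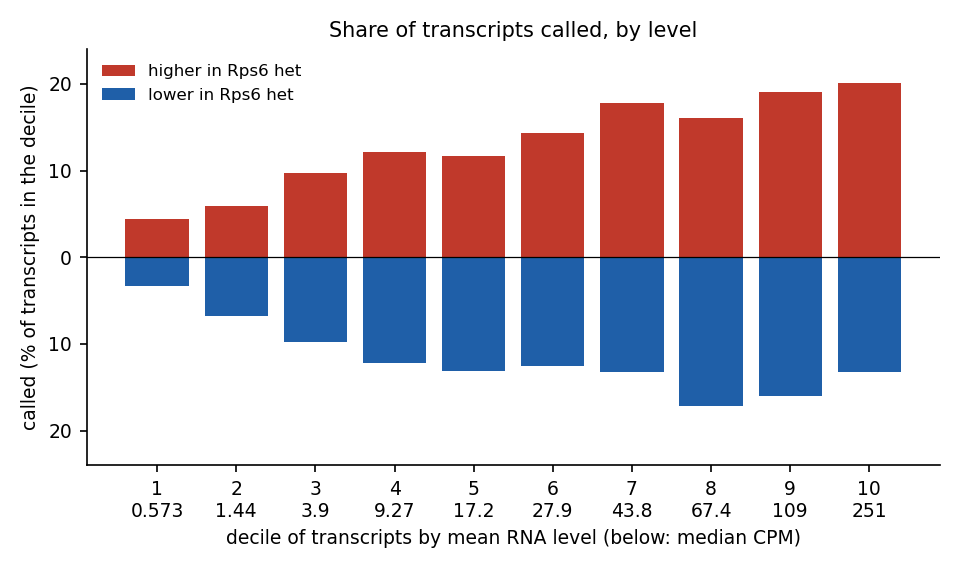
Percentage of transcripts called higher (red, upward) or lower (blue, downward) in Rps6 het limbs in each decile of the 14411 transcripts ordered by mean RNA level, with the median CPM of the decile under its number. The share called rises from 7.63% in the scarcest decile to 33.3% in the most abundant one, which holds more increases (20.1%) than decreases (13.2%).

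The called increases made up 16.7% ± 0.316 (SD, n = 3) of the scaled RNA in Rps6 WT pools and 20.6% ± 0.188 in Rps6 het pools, and the called decreases 13.9% ± 0.196 and 11.5% ± 0.246. These sums differ by the choice of transcripts and are given as a description. The gain of 3.84 percentage points was spread widely. Its 10 largest contributors supplied 14.4% of it, and 153 transcripts were needed to reach 50% of it. For the loss of 2.37 percentage points, the 10 largest contributors supplied 15.5%, and 169 transcripts were needed.

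The largest single contributor to the gain went from 3518 to 5538 CPM in the Rps6 WT pools to between 5433 and 6547 CPM in the Rps6 het pools. The pools of the 2 genotypes overlapped, and its log2 fold change of 0.46 ± 0.16 (SE) had an edgeR adjusted p = 0.046. Without Trp53 its means lay in the other order, at 8054 ± 1569 CPM in Rps6 WT and 6017 ± 1035 CPM with the deletion (edgeR adjusted p = 0.365). The largest single contributor to the loss held 5241 to 5686 CPM in the Rps6 WT pools and 3572 to 4350 CPM in the Rps6 het pools. These pools did not overlap, and the log2 fold change was −0.52 ± 0.081 (SE; edgeR adjusted p = 0.000283). In limbs without Trp53 the same transcript averaged 5087 ± 359 CPM (SD, n = 3) in controls and 5119 ± 503 CPM with the deletion, a log2 fold change of 0.01 (edgeR adjusted p = 0.978). Neither of these largest contributors has a footprint change to set beside its RNA.

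By a rule of size, 2 transcripts are named for each direction. They had the largest log2 fold changes among called transcripts with a mean of at least 1 CPM over the 6 pools and no overlap between the pools of the 2 genotypes. The largest increase was that of ENSMUST00000099623.9. Replicates 1 to 3 of Rps6 WT had 0.443, 0.4 and 0.261 CPM of its RNA, and those of Rps6 het had 30.2, 29.8 and 28.8 CPM. In counts, the Rps6 WT pools held 7 to 10 and the Rps6 het pools 566 to 664. The 3 Rps6 het pools agreed closely and were all far above the controls, and the log2 fold change was 6.34 ± 0.17 (SE; edgeR adjusted p = 5.19e-13). In limbs without Trp53 it stayed near the detection floor, at 1 to 6 counts per pool in Rps6 WT and 4 to 6 in Rps6 het. Its footprints in limbs with Trp53 showed the same gap, with 1 to 4 RPF counts per Rps6 WT pool and 133 to 232 per Rps6 het pool. The log2 fold change of its footprints was 6.66 ± 0.25 (SE), with an edgeR adjusted p = 8.12e-17. No RNA or RPF library outside Rps6 het, Trp53 WT held more than 10 counts of it. It thus entered both tests through the group where it is high, so these p-values are descriptive.

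ENSMUST00000058472.12 had the next largest increase. The 3 Rps6 WT pools held 1, 2 and 2 RNA counts, while those of Rps6 het held 111, 96 and 112, or 5.05, 5.05 and 5.48 CPM. Summed over pools and scaled, the level in Rps6 het was 72.1 times that in Rps6 WT, with an exact 95% binomial interval of 30.6 to 224 that covers counting error only. The edgeR adjusted p was 2.6e-09. In footprints it was at 0 counts in all 3 Rps6 WT pools and at 30, 18 and 46 counts in the Rps6 het pools, at least 14.1-fold higher when each control library is set to 3 counts. Without Trp53, its RNA was at 0 to 2 counts in each of the 6 pools and its footprints at 0 in all 6, so no fold is given there. This transcript too entered both tests only through the Rps6 het, Trp53 WT pools, and its p-value is descriptive.

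The other 8 of the 10 largest increases under this rule had log2 fold changes of 2.96 to 4.76. Their levels ran from 0.1 to 50.1 CPM in single Rps6 WT pools and from 2.16 to 478 CPM in single Rps6 het pools. The most abundant of them went from 48.8 ± 1.54 CPM (SD, n = 3) in controls to 445 ± 29.1 CPM. It had the smallest p of all transcripts tested (edgeR adjusted p = 1.6e-15). The increase ranked 3 went from 3.46 ± 0.32 to 93.4 ± 5.47 CPM, with a log2 fold change of 4.76 ± 0.10 (SE). Of these 8 transcripts, 2 had no RPF count in any of the 12 RPF libraries. They are ranked 4 and 6 by log2 fold change, with mean levels of 4.82 and 2.44 CPM in Rps6 het limbs. In Trp53 null limbs none of the 8 was called, with edgeR adjusted p-values between 0.385 and 0.974. The transcripts ranked 4 and 6 were at most at 0.361 CPM in any pool there, and at most at 0.3 CPM in the Rps6 WT, Trp53 WT pools. These 2 passed the filter on low counts only through the Rps6 het, Trp53 WT pools. They had to differ with Trp53, and their result without it is uninformative.

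The largest decrease was that of ENSMUST00000073722.5. The Rps6 WT pools held 67, 61 and 112 counts (2.97, 3.05 and 4.18 CPM), and the Rps6 het pools 0, 1 and 3. Scaled and summed over pools, the Rps6 WT level was 53.1 times that of Rps6 het (exact 95% binomial interval 20.5 to 196, counting error only), with an edgeR adjusted p = 0.000669. This transcript was also near 0 in the Rps6 het pools without Trp53, with 0 to 3 counts. Among the Rps6 WT pools without Trp53, replicate 1 held 2 counts and replicates 2 and 3 held 47 and 65, so pools of that genotype fell far apart. The difference between Rps6 het and Rps6 WT was not called there (edgeR adjusted p = 0.115). Outside Rps6 WT, Trp53 WT, only those replicates 2 and 3 held more than 3 counts. The transcript thus entered the test only through the group where it is high, so its ratio and p with Trp53 are descriptive. Its footprints numbered 6 counts over all 12 RPF libraries.

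ENSMUST00000132527.8 had the next largest decrease. The Rps6 WT pools had 4.91, 5.7 and 7.5 CPM of its RNA, and the Rps6 het pools had 1.37, 0.894 and 1.62 CPM. Every Rps6 het pool was below every Rps6 WT pool, and the log2 fold change was −2.22 ± 0.23 (SE; edgeR adjusted p = 5.93e-06). Its footprints fell as well, from 8.13 ± 2.18 CPM (SD, n = 3) to 1.97 ± 0.426 CPM. This was a log2 fold change of −2.05 with an SE of 0.22 (edgeR adjusted p = 9.12e-08). Without Trp53 its RNA averaged 5.09 ± 0.406 CPM in controls and 3.77 ± 0.833 CPM with the deletion. That change missed the threshold (log2 −0.45 with an SE of 0.19, edgeR adjusted p = 0.407).

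**Figure D3:**
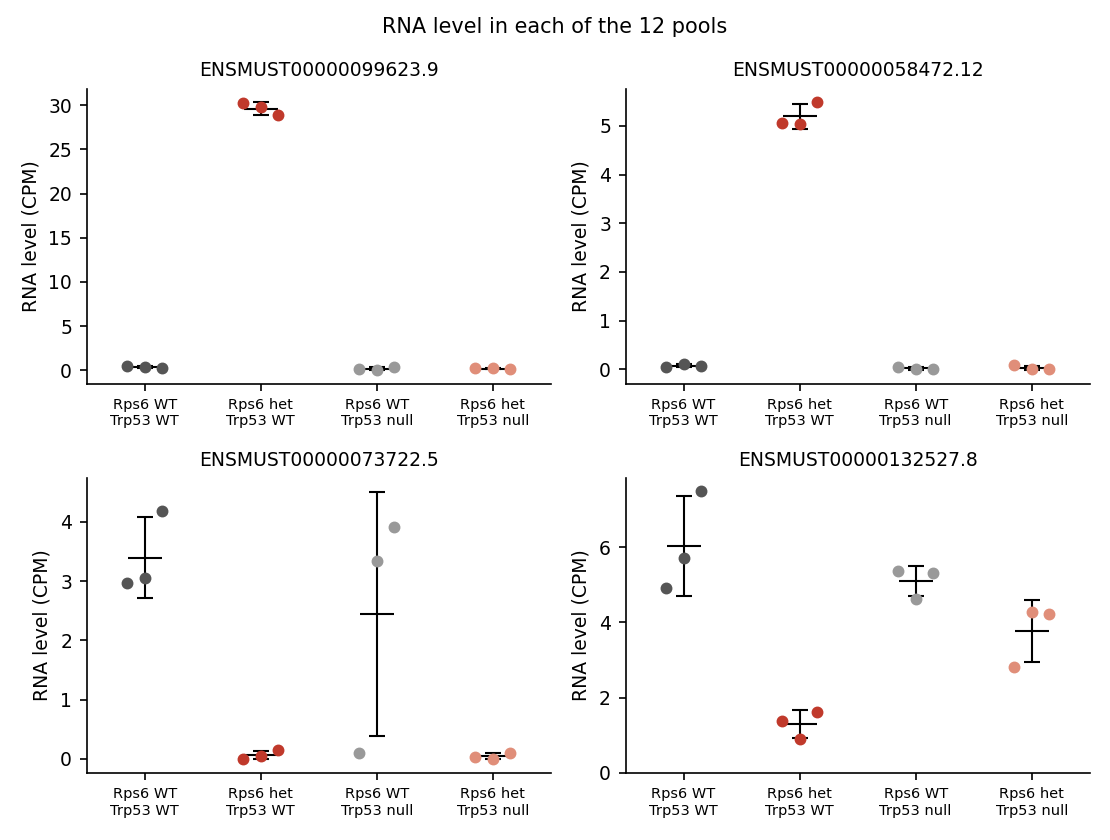
RNA level in CPM (vertical axes, linear and of different range) of the 4 named transcripts in each of the 12 RNA pools, with the mean and SD of the 3 pools of each genotype as a bar and whiskers. The upper transcripts are near 0 in all pools but the 3 of Rps6 het, Trp53 WT, which lie at 28.8 to 30.2 CPM (left) and 5.05 to 5.48 CPM (right). The lower left transcript is near 0 in all 6 Rps6 het pools and in 1 Rps6 WT, Trp53 null pool, and the lower right one is lowest in the 3 Rps6 het, Trp53 WT pools, at 0.894 to 1.62 CPM.

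The other 8 of the 10 largest decreases had log2 fold changes of −2.14 to −1.58. They were scarce, at 2.26 to 10.0 CPM in single Rps6 WT pools and 0.683 to 2.78 CPM in single Rps6 het pools. All 8 were tested in footprints, where their log2 fold changes lay between −1.94 and −1.02. In Trp53 null limbs the RNA changes of these transcripts lay between −0.58 and 0.06, with edgeR adjusted p-values between 0.245 and 0.957.

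The same Rps6 contrast was read in the 6 RNA pools without Trp53, which share no pool with the comparison above. There 10 of 14411 transcripts were called (0.0694%), and 1625 had an unadjusted p under 0.05. The DESeq2 Wald test called 39. Leaving out 1 Trp53 null pool gave 4 calls without replicate 1 of Rps6 het, 47 without its replicate 2, 5 without its replicate 3 and 5 without replicate 2 of Rps6 WT. The pools did not overlap for 15.1% of transcripts. The median SE was 0.08 in both backgrounds, but both came from 1 fit with a shared estimate of the spread. Within groups with Trp53, the median SD of log2 CPM was 0.077 (Rps6 WT) and 0.092 (Rps6 het). Without Trp53 it was 0.095 and 0.099. Chi-square over its degrees of freedom reached 17.1 between Rps6 het pools without Trp53, against at most 7.54 in the groups with Trp53. The difference between the Rps6 changes of the 2 backgrounds was itself called for 1376 transcripts (9.55%). Transcripts that had risen with Trp53 had a median log2 fold change of 0.02 without it, with quartiles of −0.06 and 0.09, and 2 of the 1892 were called. Those that had fallen had a median of −0.03, with quartiles of −0.10 and 0.04, and 5 of the 1688 were called. Over all transcripts tested the median was −0.01 and the quartiles −0.09 and 0.07.

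Of the called increases, 56.3% had a positive change without Trp53, as did 40.9% of the called decreases and 48.3% of all transcripts tested. By size, the sign was kept by 844 of 1381 increases of at most 0.5 on the log2 scale (61.1%) and 173 of 399 between 0.5 and 1. It was kept by 37 of 87 increases between 1 and 2 and by 12 of 25 above 2. Of the 112 increases in these last classes, 27 passed the filter only through the Rps6 het, Trp53 WT pools. Among decreases the sign was kept by 739 of 1282 transcripts with changes of at most 0.5, 198 of 320 between 0.5 and 1, 54 of 77 between 1 and 2, and 7 of 9 above 2. No baseline matched by level was computed for these classes, so increases and decreases of a class cannot be compared. The 25 largest increases include the 11 that passed the filter only through the Rps6 het, Trp53 WT pools, so their fitted changes without Trp53 rest on few counts and no median is given. Of the 25, 0 were called without Trp53. The 9 largest decreases had medians of −2.17 and −0.21, and 0 of them were called without Trp53. Their passage through the filter by the Rps6 WT, Trp53 WT pools alone was not counted.

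**Figure D4:**
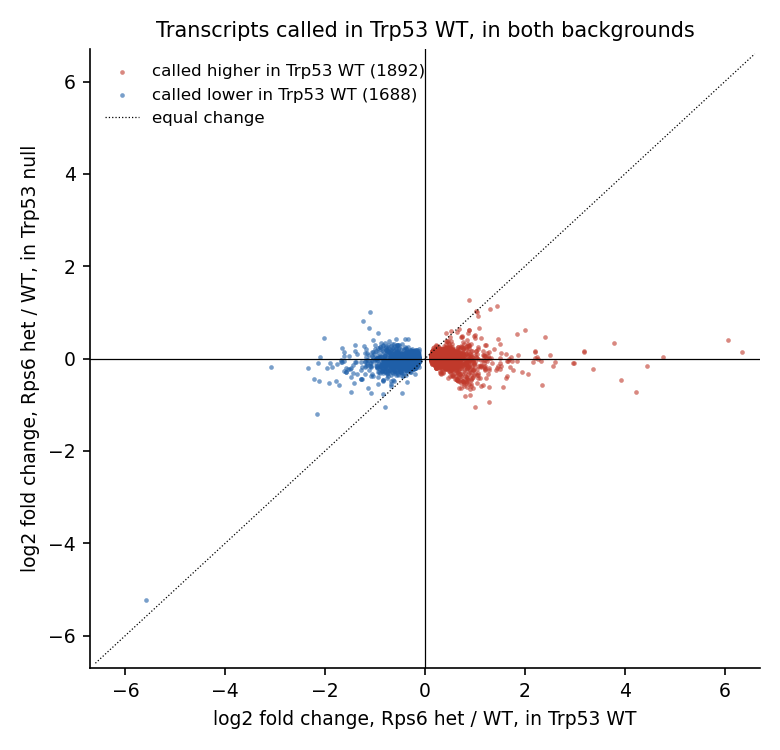
Log2 fold change of RNA in Rps6 het against Rps6 WT limbs with Trp53 (horizontal axis) and without Trp53 (vertical axis) for the 1892 increases (red) and 1688 decreases (blue) called with Trp53, 1 point per transcript. Points would lie on the dotted line if the change were equal in both backgrounds. Most points lie near the horizontal axis. For 10 transcripts the change without Trp53 exceeds 1 in size, 8 of them in the direction seen with Trp53, and the farthest is ENSMUST00000073722.5, near −5.6 with Trp53 and −5.2 without.

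The levels were also summed by pool. Without Trp53, the 1892 transcripts called higher made up 17.9% ± 0.381 (SD, n = 3) of the scaled RNA in Rps6 WT pools and 17.8% ± 0.818 in Rps6 het pools, a difference of −0.04 percentage points (exact permutation test, two-sided, p = 0.8). The 1688 called lower made up 13.2% ± 0.239 and 13.1% ± 0.491, a difference of −0.186 percentage points (exact permutation test, two-sided, p = 0.6). With 3 pools against 3 the smallest p this test allows is 0.1. The sum of the transcripts called higher includes the largest single contributor to the gain. Without Trp53 that transcript averaged 8054 ± 1569 CPM (SD, n = 3) in controls, and its mean with the deletion was lower, at 6017 ± 1035 CPM. This drop is larger in size than the summed difference of −0.04 percentage points. That difference therefore does not show how the other transcripts of the set changed. Their sum without this transcript was not tested.

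RNA changes were also set beside the footprints of the same pools. In RPF 3019 of 12147 transcripts were called in this contrast (24.9%). RNA and RPF libraries came from shared lysates, so their changes are not independent, and the RNA values are those by which the transcripts were chosen. Of the 112 increases beyond 1 on the log2 scale, 63 could be tested in RPF, and 14 of these passed the RPF filter only through the Rps6 het, Trp53 WT pools, so no median is given for them. Of the 86 decreases of that size, 52 could be tested, with medians of −1.27 in RNA and −1.14 in RPF. Passage only through the Rps6 WT, Trp53 WT pools was not counted for them, and 1 passed only through the Rps6 het, Trp53 WT pools. Called increases of at most 0.5 had medians of 0.26 in RNA and 0.19 in RPF over 1354 transcripts, of which 0 depended on those pools. For called decreases of that size they were −0.25 and −0.21 over 1259 transcripts.

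Among transcripts without footprints, more rose than fell. The RPF counts cover coding sequences, and 1150 of the transcripts tested in RNA had 0 RPF counts in all 12 RPF libraries. Of these, 146 were called in RNA (12.7%, against 24.8% over all transcripts tested), 108 higher and 38 lower in Rps6 het. Among the 12116 transcripts tested in both kinds of library, 1725 rose and 1585 fell (27.3% called). The 1145 transcripts with too few RPF counts to test held 59 increases and 65 decreases (10.8%). Transcripts without footprints were scarce, with a median level of 1.22 CPM. In every decile of level the called increases among them were more numerous than the called decreases, such as 18 and 4 in the scarcest decile, where all other transcripts had 45 and 43. Of all 1892 called increases, 28 passed the filter on low counts only through the Rps6 het, Trp53 WT pools and had to differ. How many of these lack footprints was not counted. The number of called increases without footprints depended on the pools and the test. It was 43, 58, 51 and 63 without replicate 1 of Rps6 het, replicate 3 of Rps6 het, replicate 3 of Rps6 WT and replicate 1 of Rps6 WT, respectively. The DESeq2 Wald test gave 58 increases and 29 decreases. The decreases numbered 24 without replicate 3 of Rps6 WT. With library totals alone there were 87 increases and 55 decreases.

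The median log2 fold change of these 1150 transcripts was 0.15, and 64.1% of the values were above 0. Without Trp53 the median was −0.10 and 34.4% of the values were above 0. By pool, the median difference from the Rps6 WT, Trp53 WT mean was −0.03, 0.04 and −0.02 on the log2 scale in the Rps6 WT pools and 0.21, 0.07 and 0.16 in the Rps6 het pools. The groups did not overlap (exact permutation test, two-sided, p = 0.1, the smallest it allows with 3 against 3). The reference is the mean of the same Rps6 WT pools, which centres them near 0, so this p is only a description. Without Trp53 the pools lay at 0.12, 0.14 and 0.12 in Rps6 WT and at 0.01, 0.08 and 0.05 in Rps6 het, which do not overlap in the opposite order (p = 0.1 by the same exact test). Over all rows without footprints, the share of library counts was 3.83% to 5.25% in Rps6 WT and 4.89% to 5.25% in Rps6 het with Trp53, and 5.56% to 7.24% and 4.55% to 6.24% without Trp53. The part that this share of the library has in the changes was not tested.

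**Figure D5:**
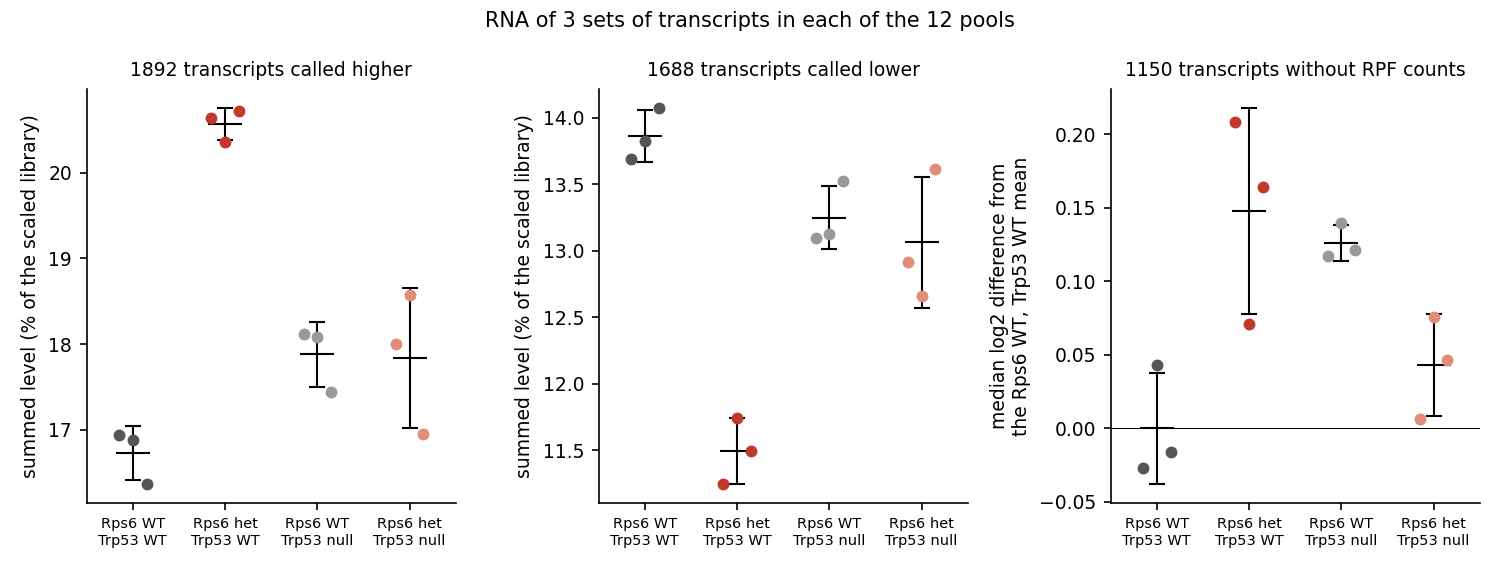
Left and middle, summed RNA level of the 1892 transcripts called higher and the 1688 called lower, in percent of the scaled library, in each of the 12 RNA pools (axes do not start at 0). Right, median log2 difference from the Rps6 WT, Trp53 WT mean over 1150 transcripts without RPF counts, by pool. Points are pools and bars give the mean and SD of 3. The Rps6 het, Trp53 WT pools lie apart in the left and middle plots, where they differ by the choice of transcripts, while the Trp53 null groups overlap. In the right plot the Rps6 het pools lie above Rps6 WT with Trp53 and below it without.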

How the data were processed

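The authors deposited 1 table of counts per transcript. By its name, RPF were counted over the coding sequence, and the RNA counts are called total, which may mean the whole transcript or total RNA. Whether reads or molecules were counted is not given in the sources used here. Per the submitters' processing notes, Bowtie2, UMI-tools and the builds GRCm38 and mm10 were used, without roles. Annotation, strand and read filters are not given in the sources used here, so reads shared between near-identical or overlapping transcripts, and duplicates, are of unknown effect. Changes of single transcripts carry that uncertainty. No sample column was left unused.

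Counts were tested with edgeR 4.0.16 (R 4.3.3) by the quasi-likelihood F test after filterByExpr (minimum count 10, minimum total 15) and TMM scaling. One model held all 12 RNA libraries, without covariates, and another the 12 RPF libraries. P-values were adjusted by Benjamini-Hochberg over all transcripts tested. SE were derived from the F statistic, and CPM use TMM-scaled totals. The procedure was tested on simulated data with far fewer changed transcripts than were called here. A change as broad as this one was not simulated. Alternatives were a replicate block, DESeq2 1.42.0 size factors and Wald test, limma-voom (limma 3.58.1), other filters, only the libraries compared, thinning to the smallest total, leaving out the 10 most abundant transcripts, library totals and leaving out each pool. The members, the rules and the lists were chosen with earlier results of these data known. Of the named-gene rule, only its provision for IDs without symbols could be used, and the lists of genes and cell type markers were left out because IDs were not paired with symbols. Pools of different genotypes share replicate numbers in their labels, but the labels do not say what these stand for. They were not treated as pairs in the main model.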

Additional observations from a re-analysis of the deposited data

Results flagged for a closer look

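The Rps6 change in RNA differed between the backgrounds with and without Trp53 for 1376 of 14411 transcripts (9.55%) by the test of the difference itself in the same edgeR model (adjusted p under 0.05). With Trp53, leaving out replicate 1 or 3 of Rps6 het lowered this to 641 and 814, and leaving out replicate 3 of Rps6 WT to 650. Without Trp53, leaving out replicate 3 of Rps6 het lowered it to 745, and leaving out replicate 1 or 2 of Rps6 WT to 770 and 692. Among the named transcripts, ENSMUST00000099623.9 had a log2 fold change in Trp53 WT that was 6.19 above that in Trp53 null (edgeR adjusted p = 0.000155). It entered the test only through the Rps6 het, Trp53 WT pools, as the other pools held at most 10 counts, so this p is descriptive. For ENSMUST00000132527.8 the difference was −1.77 (edgeR adjusted p = 0.0025). The differences of ENSMUST00000058472.12 (edgeR adjusted p = 0.123) and ENSMUST00000073722.5 (edgeR adjusted p = 0.949) were not called. Both have 0 to 3 counts in most pools of the groups where they are low. Groups of 3 pools are too small for a search for single deviating pools.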

How the results depend on the processing

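Leaving out 1 pool gave 2211 to 3418 called transcripts in the main comparison (1162 to 1766 higher, 1027 to 1652 lower, 174 to 231 beyond 1 on the log2 scale), 4 to 47 for the Rps6 contrast without Trp53, 641 to 1806 for the difference between the backgrounds and 2183 to 2735 in RPF. Over the other alternatives the main count was 3004 to 4078, within 1.5 times of 3580. The replicate block gave 4078, 3555 of them among the 3580. For the difference between the backgrounds it gave 2000 in place of 1376. Deviations of same-numbered pools from their group means correlated with r = 0.01, 0.09 and 0.05, and not every pool correlated best with its own number, so the numbers were not taken as a pairing. With a minimum count of 50, 94 transcripts in place of 198 were called beyond 1 on the log2 scale, as scarce transcripts are then not tested. The Rps6 contrast without Trp53 gave 28 calls with no filter, 39 by the DESeq2 Wald test and 4 with only its own 6 libraries, in place of 10. The cause was not tested. The 4 named transcripts kept direction and call in all 16 refits each, with edgeR, DESeq2 or limma adjusted p-values of at most 0.00576. They were chosen as the largest changes in these same pools. In the main fit, all but ENSMUST00000132527.8 entered the test only through the group where they are high. Their stability is therefore a description. A minimum count of 50 gave 67 increases among transcripts without RPF counts. Alternatives for lists of genes and markers were not run, as IDs were not paired with symbols. Depth limits what can be seen of transcripts near 1 CPM, where the SE is large.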
